A study of Homo sapiens with 8 samples.

Results

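The genes described here encode 10 transcription factors and cofactors of the lymphoid lineage, IKZF1, IKZF2, IKZF3, EBF1, TCF3, TCF4, ID3, POU2F2, RUNX3 and MYB, out of 20162 protein coding genes annotated on GRCh37. They were chosen by name for their roles, and for each the FLI1 ChIP-Seq peaks around its transcriptional start sites (TSS) and within the gene were read from the peak lists. FLI1 is an ETS family transcription factor, and chromatin bound by it was immunoprecipitated with a rabbit polyclonal antibody (ab-15289) from the untreated germinal center B-cell (GCB) diffuse large B-cell lymphoma lines OCI-Ly1 and VAL. There were 2 FLI1 libraries per cell line, and 4 samples of input DNA, which are not used here. The replicate numbers do not say whether separate cultures were used, each line is a single tumour-derived line, and a peak list holds no transcript levels, so the labelled cell type could not be checked against markers.

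Lymphoid identity is set by a small network of DNA-binding proteins. The Ikaros family of zinc finger factors, IKZF1 (Ikaros), IKZF2 (Helios) and IKZF3 (Aiolos), act in lymphoid development and in mature lymphocytes, and EBF1 opens chromatin at B-cell genes and holds cells in the B lineage. TCF3 and TCF4 are E proteins that bind E box motifs as dimers, and ID3 pairs with them and keeps them off DNA. POU2F2 (Oct-2) binds the octamer of immunoglobulin promoters together with its coactivator POU2AF1, RUNX3 belongs to the Runt domain factors, and MYB drives lymphoid progenitors. ETS factors such as FLI1 recognise a GGAA core, most often within CCGGAAG or CCGGAAA.

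A peak was called where its −log10 q was 3 or more, the false discovery rate of 0.001 stated in the methods of the study. The fold enrichment and p-value of a listed peak together fix the whole number of reads at its summit and the background expected there, and these reads are given below with exact Poisson 95% intervals, which cover counting error only. Called peaks numbered 5354 in the second OCI-Ly1 replicate, 973 in the first of VAL and 6474 in the second of VAL, with a median of 8, 17 and 8 reads at the summit and a minimum of 6, 8 and 6. The first OCI-Ly1 list was left out: of its 37 intervals, 33 exceed 1 Mb. The lists used are called OCI-Ly1 r2, VAL r1 and VAL r2 below, after their replicate numbers. The OCI-Ly1 values below therefore come from a single library, and the pair of VAL libraries, which differ in depth of calling, give the replicate spread there is.

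FLI1 peaks were found at 5 sites in 4 of the genes, EBF1, TCF3, ID3 and POU2F2. The sites with a CCGGAAG match are shown because that sequence is the one an ETS factor prefers, and the ID3 sequences are shown because they hold a GGAA core without it. All are from the plus strand of GRCh37, written 5′ to 3′, with capitals marking each GGAA or its complement TTCC.
EBF1 intron, chr5:158239546-158239646: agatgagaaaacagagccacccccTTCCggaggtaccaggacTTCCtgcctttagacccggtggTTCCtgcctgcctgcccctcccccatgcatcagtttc
POU2F2 promoter, chr19:42636627-42636655: agccctccctgccGGAAgtcactcaggga
TCF3 intron, chr19:1648537-1648637: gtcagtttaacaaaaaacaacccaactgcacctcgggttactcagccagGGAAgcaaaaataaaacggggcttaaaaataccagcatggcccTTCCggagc
ID3 in OCI-Ly1, chr1:23885172-23885272: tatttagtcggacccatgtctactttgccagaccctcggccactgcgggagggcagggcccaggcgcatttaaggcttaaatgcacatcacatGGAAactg
ID3 in VAL, chr1:23884928-23884956: accaaggagcagtcagtTTCCgccgagcg

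Within 3 kb of a TSS, 3 of the 10 genes had a called peak in OCI-Ly1 r2 (TCF3, ID3 and POU2F2), none in VAL r1 and 2 in VAL r2 (ID3 and POU2F2). Over all protein coding genes, 19%, 3.14% and 20.8% had such a promoter peak in these libraries. ID3 and POU2F2 had one in both cell lines, that is 2 of 10 genes, beside 12.6% of all protein coding genes. These genes have a median of 10.5 annotated TSS beside 5 over all protein coding genes, and so as a set more sequence in which a peak can fall. ID3 (3 TSS), RUNX3 (4), IKZF3 (5) and IKZF2 (9) have fewer than 10. Among the 5191 protein coding genes with at least 10 TSS, a comparison added after the data were seen, the shares were 28.8%, 4.68% and 31.4%, and 19.5% in both cell lines. The lineage factor genes thus stood near the background in each library. The median −log10 q of the best promoter peak was 2.13, 0.11 and 1.71 over the 10 genes in OCI-Ly1 r2, VAL r1 and VAL r2, and 1.22, 0.18 and 1.63 over all protein coding genes. These medians were not matched for the number of TSS, and a gene with no listed promoter peak counted as 0. In VAL r1 this held for 3 of the 10 genes and 5058 of all 20162.

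**Figure D1:**
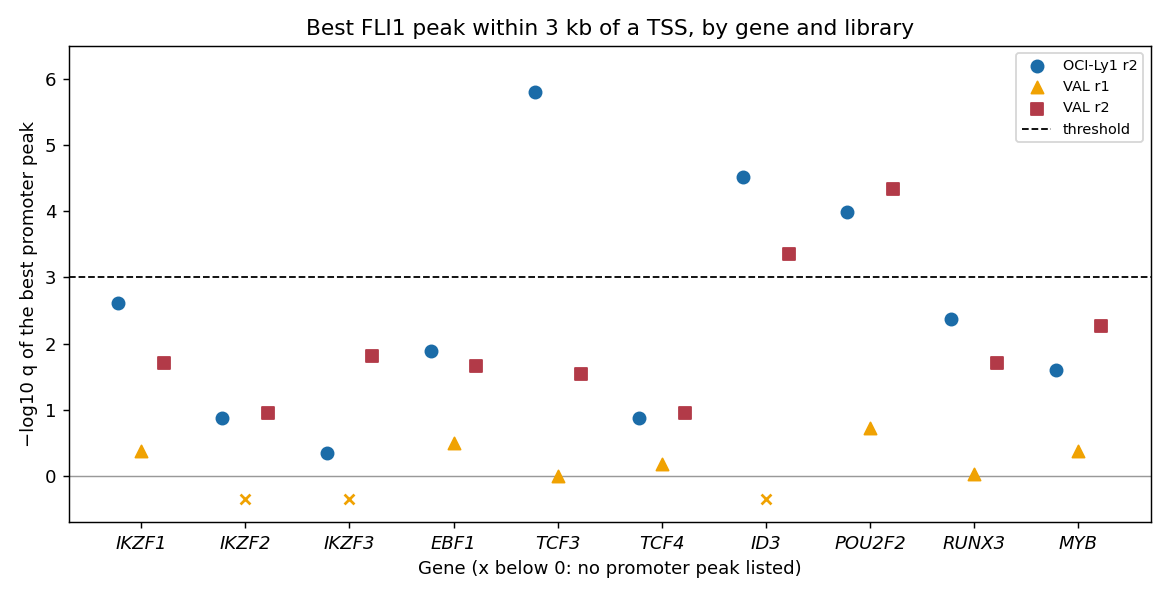
The −log10 q of the best FLI1 peak within 3 kb of a TSS (vertical axis) for each of the 10 genes (horizontal axis) in OCI-Ly1 r2 (circles), VAL r1 (triangles) and VAL r2 (squares); the dashed line is the threshold of 3 and a cross stands for no listed peak. TCF3 passed the threshold in OCI-Ly1 r2, ID3 and POU2F2 passed it in OCI-Ly1 r2 and VAL r2, and no triangle reached 1.

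Inside the genes, 5 called peaks were found in OCI-Ly1 r2, none in VAL r1 and 3 in VAL r2. They lay in 4 genes in OCI-Ly1 r2 and in 3 genes in VAL r2, beside 15.9% and 18.8% of all protein coding genes with a called peak inside (2.6% in VAL r1). Per Mb of gene this was 3.35, 0 and 2.01 peaks, and 2.63, 0.39 and 3.24 over all protein coding genes. With promoter and gene counted jointly, EBF1, ID3 and POU2F2 had a peak in both cell lines, 3 of 10 genes beside 14.5%. The 10 genes have a median length of 108.5 kb beside 27.2 kb over all protein coding genes. The shares of genes were not matched for length.

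IKZF1, IKZF2 and IKZF3 had no called peak at a promoter or inside the gene. IKZF1 (chromosome 7 from 50343664 to 50472799, plus strand) came closest, with a best promoter −log10 q of 2.61 in OCI-Ly1 r2, 0.38 in VAL r1 and 1.71 in VAL r2. The summits of OCI-Ly1 r2 and VAL r2 lay 102 bp apart at the 5′ end of the gene, with 6 reads (2.2 to 13.1) and 4 reads (1.09 to 10.2), whereas the VAL r1 peak lay 92634 bp into the gene. Among the best promoter values of the 10 genes, the OCI-Ly1 value of IKZF1 was the highest below the threshold. In that library 77.1% of protein coding genes had a lower best value. Neither summit at the 5′ end had a CCGGAAG or CCGGAAA within 50 bp. At IKZF2 (chromosome 2 from 213864415 to 214017151, minus strand) the values were 0.87 in OCI-Ly1 r2 and 0.95 in VAL r2, with 3 reads (0.62 to 8.77) in each, and no promoter peak was listed in VAL r1. At IKZF3 (chromosome 17 from 37913971 to 38020565, minus strand) they were 0.34 and 1.82, with 2 reads (0.24 to 7.22) and 5 reads (1.62 to 11.7), and again none was listed in VAL r1. The VAL r2 peak of IKZF3 had its summit 18 bp upstream of a TSS shared by 10 of its transcripts, while the OCI-Ly1 peak lay 88363 bp away at an internal TSS. At these read numbers a weakly occupied site could not be detected.

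Beyond the promoters, IKZF3 had a called peak in both cell lines just past its 3′ end. It reached a −log10 q of 4.6 with 8 reads (3.45 to 15.8) in OCI-Ly1 r2 and 29.6 with 23 reads (14.6 to 34.5) in VAL r2, where it ranked 178 by −log10 q among all listed peaks. In VAL r1 a peak was listed at the same place with 13 reads (6.92 to 22.2) and a −log10 q of 2.52, below the threshold. The 3 summits, at 37910792, 37910764 and 37910783 on chromosome 17, lay between annotated genes, with the centre of the peak 3.58 kb past the gene end in OCI-Ly1 r2 and 3.4 kb past it in VAL r2. All 3 libraries thus listed a peak there, and the nearest TSS in the annotation was that of GRB7, an adaptor protein gene, 10866 bp away from the centre of the OCI-Ly1 peak. GRB7 is named here after the values were seen. The site holds CCGGAAG on the plus strand between 37910810 and 37910816.
IKZF3 3′ side, chr17:37910799-37910827: agcggcagtgcccGGAAgggcggggcggg

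EBF1 had its single called peak deep within the gene, in both cell lines. EBF1 (chromosome 5 from 158122928 to 158526924, minus strand) spans 404 kb, and the peak lay in intron 8 of the canonical transcript, which has 16 exons, with the OCI-Ly1 summit 287328 bp from the canonical TSS and 104579 bp from the nearest annotated TSS. The −log10 q was 6.47 with 8 reads (3.45 to 15.8) in OCI-Ly1 r2, 1.77 with 8 reads (3.45 to 15.8) in VAL r1 and 6.15 with 9 reads (4.12 to 17.1) in VAL r2. The VAL r1 peak thus missed the threshold with as many reads as the OCI-Ly1 peak, over an expected background of 1 read rather than 0.28. The peak was the highest of those listed inside the gene in each of the 3 libraries. The next highest reached 1.89 of 153 listed peaks in OCI-Ly1 r2, 0.5 of 27 in VAL r1 and 1.73 of 96 in VAL r2. The called summits lay 23 bp apart.

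**Figure D2:**
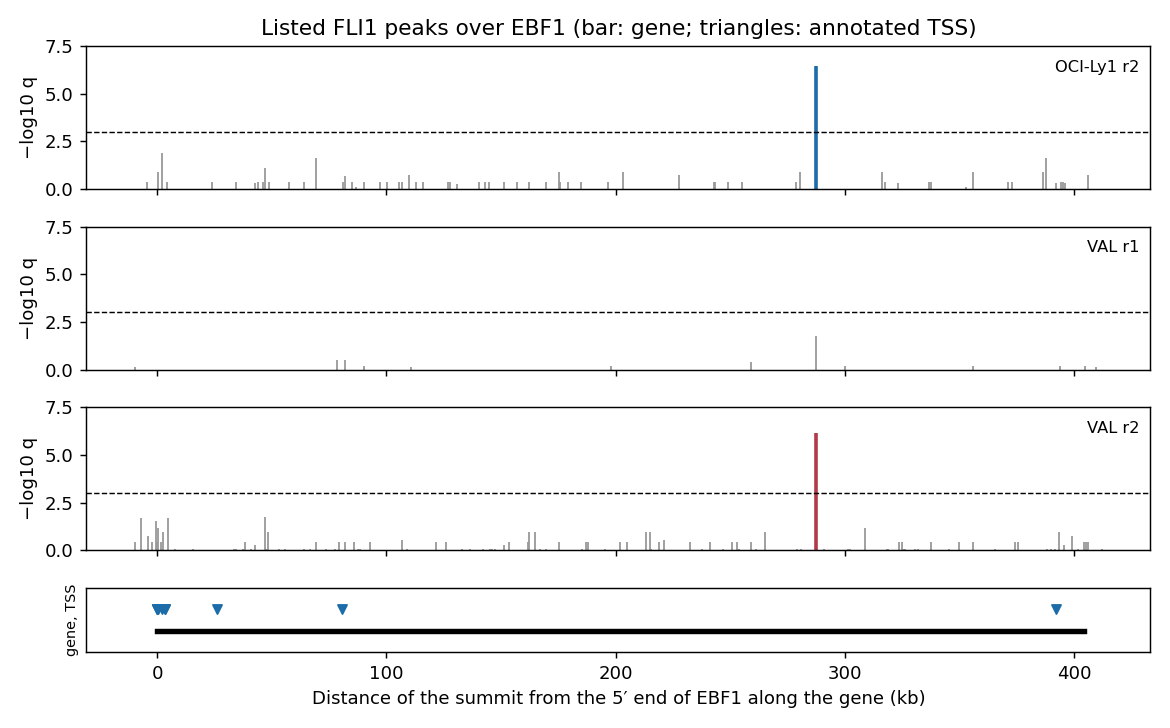
Listed FLI1 peaks over EBF1 in the 3 libraries, with the distance of each summit from the 5′ end of the gene in kb (horizontal axis) against its −log10 q (vertical axis); coloured lines passed the dashed threshold of 3, the bar is the gene and triangles are its annotated TSS. The same position, 287 kb into the gene, stands highest in each library, at 6.47, 1.77 and 6.15.

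The EBF1 sequence printed above holds CCGGAAG on the minus strand, between 158239569 and 158239575, and further GGAA cores on the same strand at 158239588 and 158239610. The VAL r2 summit fell within the CCGGAAG match and the OCI-Ly1 summit 21 bp from it. Of all called peaks more than 3 kb from any TSS, 10.5% in OCI-Ly1 r2 and 9.2% in VAL r2 had CCGGAAG or CCGGAAA on either strand within 50 bp of the summit, and 61.2% and 62.5% had a GGAA, which these longer words contain. The promoters of EBF1 had no called peak, with best values of 1.89, 0.5 and 1.67 in OCI-Ly1 r2, VAL r1 and VAL r2.

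Among the E proteins and their inhibitor, TCF3 had a called peak in OCI-Ly1 alone, ID3 in both lines and TCF4 in neither. TCF3 (chromosome 19 from 1609290 to 1652614, minus strand) had a −log10 q of 5.8 with 8 reads (3.45 to 15.8) in OCI-Ly1 r2, the highest promoter value of the 10 genes. This peak lay in intron 2 of the canonical transcript, 2157 bp downstream of the TSS of an alternative coding transcript and 4027 bp from the canonical TSS. An overlapping peak of 0.43 with 2 reads (0.24 to 7.22) was listed in VAL r2, and none in VAL r1. The VAL r2 summit lay 2629 bp downstream of the alternative TSS. The Poisson intervals of the OCI-Ly1 and VAL r2 reads overlapped, but they do not compare the lines at the same position. Elsewhere at its promoters TCF3 reached 1.54 in VAL r2, 89 bp upstream of the canonical TSS, and 0 in VAL r1. Its OCI-Ly1 site holds CCGGAAG on the minus strand 41 bp from the summit and a GGAA at the summit itself, as printed above. A further called peak of OCI-Ly1 r2, of 3.4 with 7 reads (2.81 to 14.4), was centred 0.465 kb past the 3′ end of TCF3. An overlapping peak of 2.7 with 6 reads (2.2 to 13.1), below the threshold, was listed in VAL r2, and none in VAL r1.

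TCF4 (chromosome 18 from 52889416 to 53332018, minus strand) had 90 annotated TSS and the most promoter sequence of the 10 genes, 125 kb in all. Its best promoter values were nonetheless 0.87 in OCI-Ly1 r2, 0.18 in VAL r1 and 0.95 in VAL r2, with 4 reads (1.09 to 10.2), 4 reads (1.09 to 10.2) and 3 reads (0.62 to 8.77). Of 160, 14 and 132 peaks listed inside the gene, the highest reached 1.22, 0.5 and 0.95. No position within TCF4 came near the threshold in any of the 3 libraries.

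ID3 is a short gene of 1.58 kb (chromosome 1 from 23884417 to 23885992, minus strand), of which listed peaks, called or not, covered 91.1% in OCI-Ly1 r2 and 50.3% in VAL r2. The −log10 q was 4.52 with 7 reads (2.81 to 14.4) in OCI-Ly1 r2 and 3.35 with 6 reads (2.2 to 13.1) in VAL r2, and no peak was listed in VAL r1. The VAL value was the lowest called value of the 10 genes. Both summits fell in intron 2 of the canonical transcript, a stretch that is exonic in an alternative transcript, at 770 bp and 1050 bp from the canonical TSS. They lay 280 bp apart, and each had a GGAA core but no CCGGAAG or CCGGAAA within 50 bp. An E box, CAGGTG or CAGCTG on either strand, the motif bound by the E proteins that ID3 inhibits, was present 40 bp from the VAL summit. An E box was present within 50 bp of 20.2% of called promoter peaks in VAL r2.

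POU2F2 (chromosome 19 from 42590262 to 42700737, minus strand) had a called peak at an internal promoter in both cell lines and a further intronic peak in OCI-Ly1. At the promoter the −log10 q was 3.99 with 7 reads (2.81 to 14.4) in OCI-Ly1 r2 and 4.33 with 8 reads (3.45 to 15.8) in VAL r2, and no peak was listed there in VAL r1. The summits lay 13 bp apart, 9 bp and 22 bp upstream of the TSS of a coding transcript and 41 bp and 54 bp upstream of the canonical TSS. This was the closest placement in the pair of lines among the 10 genes. Over the 2525 protein coding genes with a called promoter peak in both OCI-Ly1 r2 and VAL r2, the median distance between the best summits was 31 bp. Over the 14164 genes with a promoter peak listed in both libraries and called in neither it was 2102 bp, and over the 7 lineage factor genes of that kind 2233 bp. The microRNA gene MIR4323 and the antisense gene POU2F2-AS1 also have a TSS within 3 kb of this peak, so it cannot be assigned to POU2F2 alone.

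The POU2F2 promoter sequence printed above holds CCGGAAG on the plus strand between 42636638 and 42636644, at the OCI-Ly1 summit and 8 bp from the VAL summit. A further GGAA lies between 42636656 and 42636659, directly followed by the RUNX core TGTGGT on the minus strand between 42636660 and 42636665. TGTGGT on either strand was found within 50 bp of the summit in 4.11% of called promoter peaks in OCI-Ly1 r2 and 4.4% in VAL r2. Of the 3 called promoter sites of these genes, 2 (POU2F2 and TCF3) held CCGGAAG, beside 44.7% of called promoter peaks in OCI-Ly1 r2 and 37.7% in VAL r2 with CCGGAAG or CCGGAAA. The octamer ATGCAAAT, searched on both strands, was not within 50 bp of a summit at any of the 5 sites, and it was found at 0.208% of called promoter peaks in OCI-Ly1 r2.

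**Figure D3:**
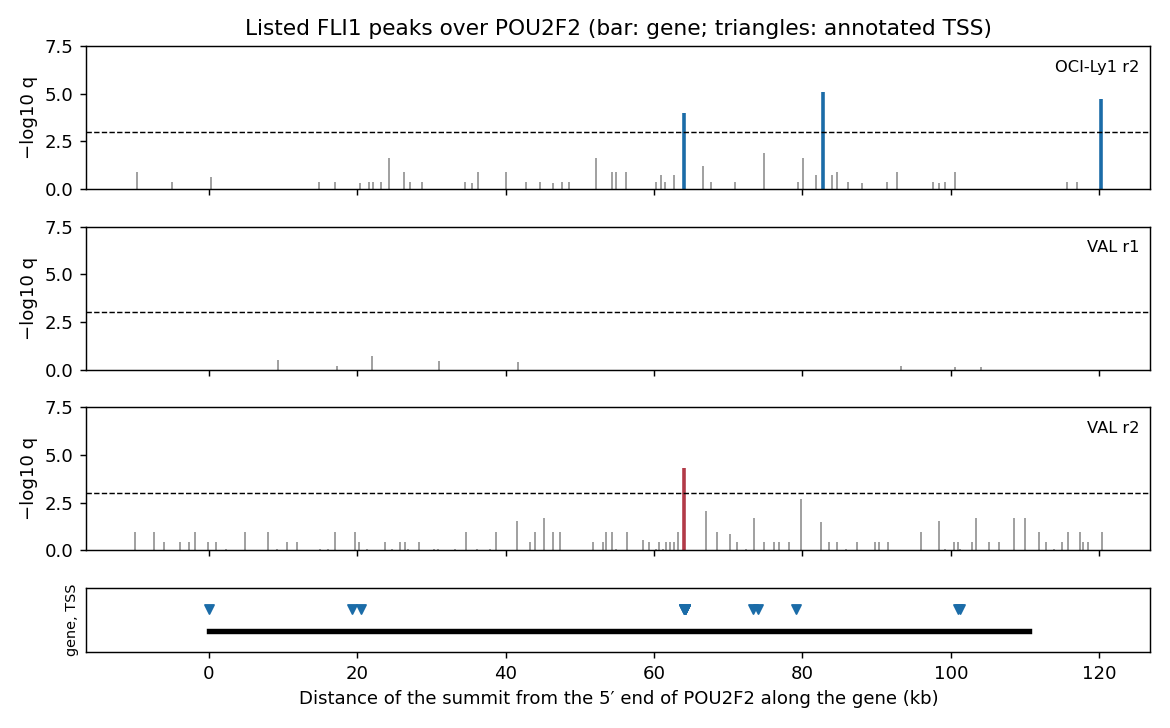
Listed FLI1 peaks over POU2F2 and 10 kb to each side in the 3 libraries, with the distance of each summit from the 5′ end of the gene in kb (horizontal axis) against its −log10 q (vertical axis); coloured lines passed the dashed threshold of 3, the bar is the gene and triangles are its annotated TSS. The peak at 64 kb passed in OCI-Ly1 r2 (3.99) and VAL r2 (4.33), and the remaining coloured lines belong to OCI-Ly1 r2.

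The intronic POU2F2 peak reached 5.1 with 7 reads (2.81 to 14.4) in OCI-Ly1 r2, in intron 5 of the canonical transcript and 3590 bp downstream of the nearest TSS. VAL r2 listed a peak of 1.49 with 4 reads (1.09 to 10.2) beside it, and VAL r1 listed none. The VAL r2 summit lay 3417 bp downstream of the same TSS. The intervals of the OCI-Ly1 and VAL r2 reads overlapped, but the summits lay at different positions. GGAA was present 17 bp from the OCI-Ly1 summit, without CCGGAAG or CCGGAAA.

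**Figure D4:**
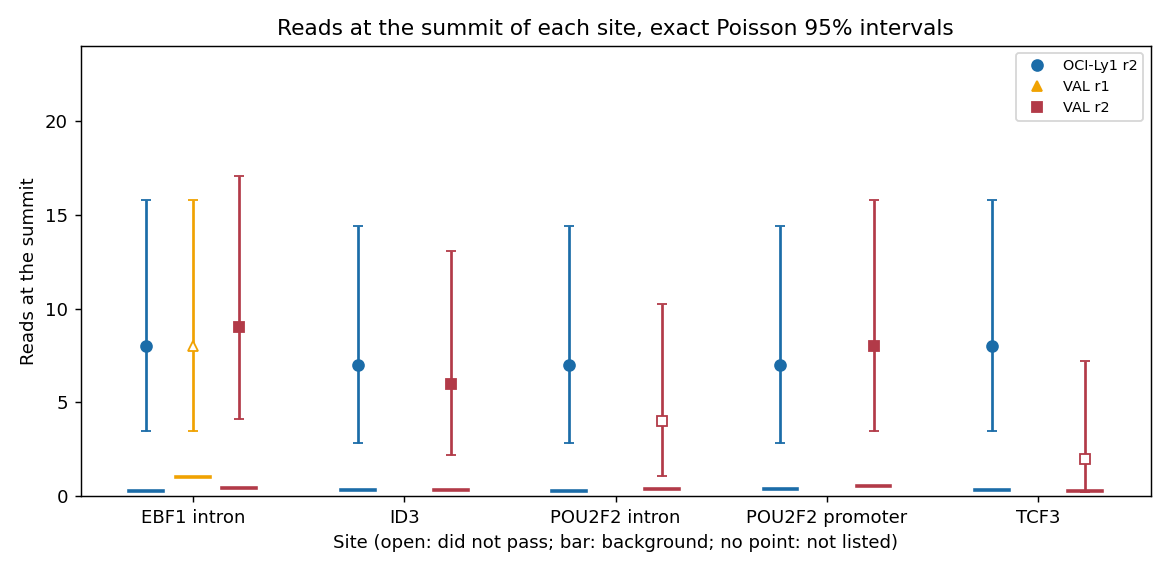
Reads at the summit (vertical axis) of the 5 sites called in at least 1 library (horizontal axis) in the 3 libraries, with exact Poisson 95% intervals as error bars, open symbols for peaks below the threshold and short bars for the expected background; no point means that no peak was listed. The counts lie between 2 and 9 reads, and within each site the intervals of the listed libraries overlap, although the summits can lie at different positions.

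RUNX3 and MYB had no called peak at a promoter or inside the gene. RUNX3 (chromosome 1 from 25226002 to 25291612, minus strand) reached 2.38 with 5 reads (1.62 to 11.7) in OCI-Ly1 r2, 47 bp upstream of its 5′ end. The RUNX3 values were 0.03 in VAL r1 and 1.71 in VAL r2, the latter at a position 1422 bp from the OCI-Ly1 summit. MYB (chromosome 6 from 135502446 to 135540311, plus strand) reached 1.61 in OCI-Ly1 r2, 0.38 in VAL r1 and 2.27 in VAL r2. The OCI-Ly1 and VAL r1 summits of MYB lay 22 bp apart at an internal TSS, with 4 reads (1.09 to 10.2) and 5 reads (1.62 to 11.7). The VAL r2 summit lay at the 5′ end, 281 bp upstream, with 5 reads (1.62 to 11.7). The highest value below the threshold inside any of these genes was 2.7, at POU2F2 in VAL r2.

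A −log10 q depends on the depth of its library, so the genes were also placed by the percentage of protein coding genes with a lower best promoter value. POU2F2 stood at 85.1, 82.1 and 85.7 in OCI-Ly1 r2, VAL r1 and VAL r2, but the VAL r1 value belongs to a peak at another TSS, 42135 bp from the VAL r2 summit. ID3 stood at 86.8 in OCI-Ly1 r2 and 81.4 in VAL r2, and TCF3 at 89.7 and 49. For TCF3 the difference between OCI-Ly1 r2 and VAL r2 was 40.7 points, and that between VAL r1 and VAL r2 was -23.9 points. IKZF3 was the gene placed higher in VAL r2 by the widest margin, 64.6 beside 5.41 in OCI-Ly1 r2. Values are often tied, and genes with an equal or lower value made up 66% and 19.8%. IKZF3 had no listed promoter peak in VAL r1. For this gene the VAL libraries thus also differed, and a difference between the lines was not tested, with 1 usable OCI-Ly1 library.

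Relatives of these genes were read in the same way from a list of 17 (the remaining Ikaros, EBF, E protein, ID, POU2, RUNX and MYB family genes with the partners POU2AF1 and CBFB). A called promoter peak was present at 5 of them in OCI-Ly1 r2, 2 in VAL r1 and 5 in VAL r2, and at 3 in both cell lines, POU2AF1, POU2F1 and RUNX1. POU2AF1, the B-cell coactivator of POU2F2, had a −log10 q of 20.6 in OCI-Ly1 r2, 4.44 in VAL r1 and 22.5 in VAL r2, above the threshold in each. All of its values exceeded those of the 10 lineage factor genes in the same libraries. POU2F1, the widely expressed octamer factor, had 5.97, 1.3 and 9.11, and RUNX1 had 3.22, 0.5 and 5.32. The Ikaros family gene IKZF4, named after its values were seen, had 6.19, 0.28 and 1.28, and so was called in OCI-Ly1 r2 alone.

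A second list held 20 other transcription factors of lymphoid lineages. A called promoter peak was present at 7 of them in OCI-Ly1 r2, none in VAL r1 and 8 in VAL r2. In both cell lines there were 4, PAX5, SPIB, ZBTB17 and ZBTB7B. PAX5, the factor that commits cells to the B lineage, had values of 3.13, 0.65 and 3.29 in OCI-Ly1 r2, VAL r1 and VAL r2. SPIB, an ETS factor of B cells, had 10.7, 1.87 and 7.39. ZBTB17 had 3.86, 0.18 and 3.31, and ZBTB7B, a factor of CD4 T-cell choice, had 5.08, 0.69 and 3.8. Both lists were chosen with earlier results of these data known, and their counts are a description. They stand beside 19%, 3.14% and 20.8% of all protein coding genes per library, and 12.6% in both cell lines.

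**Figure D5:**
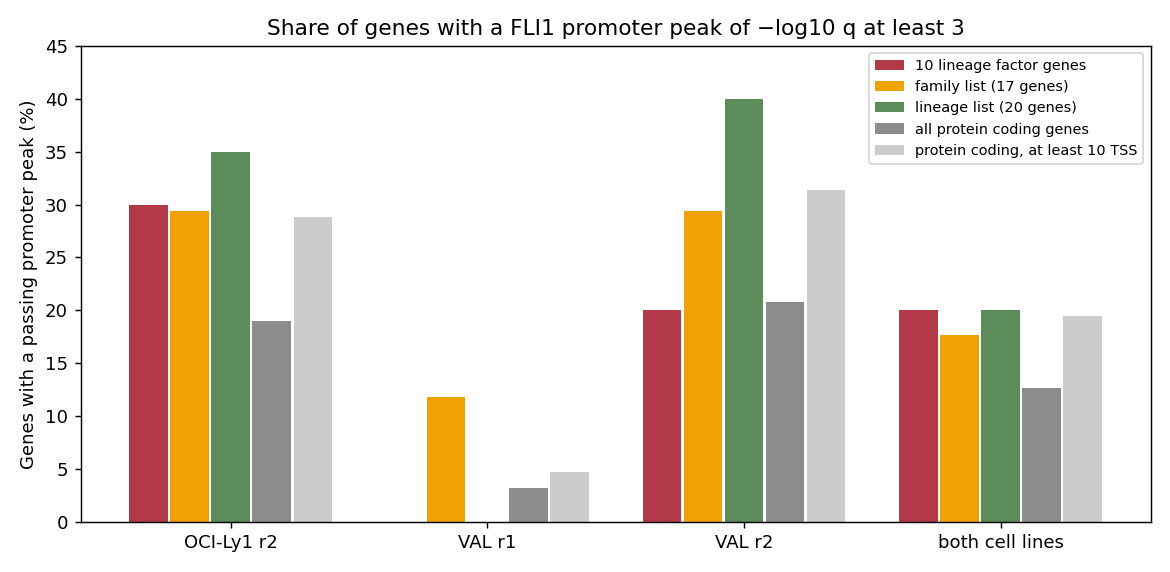
Share of genes with a called FLI1 promoter peak in percent (vertical axis, from 0) in each library and in both cell lines (horizontal axis) for the 10 lineage factor genes, the family list of 17, the lineage list of 20, all protein coding genes and protein coding genes with at least 10 TSS. The lineage factor bars stand at 3, 0, 2 and 2 of 10 genes, beside 19%, 3.14%, 20.8% and 12.6% of all protein coding genes.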

How the data were processed

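FLI1 ChIP-Seq libraries of OCI-Ly1 and VAL (2 each) were used as peak lists of 10 columns. Per the labels' processing notes the authors used hg19, CASAVA 1.4 and BWA, whereas the study's methods state bowtie2 on GRCh37, reads with a mapping quality of at least 10, duplicate removal and HOMER at a false discovery rate of 0.001. The deposited columns hold a fold enrichment, a −log10 p-value and a −log10 q-value in the form MACS2 writes, with p-values up to 0.05. The caller, control and settings of these lists are not given in the sources used here.

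Peaks were placed by their centre within 3 kb of any TSS in GENCODE release 44 on GRCh37 or between gene start and end, and called at −log10 q of at least 3, per library and without a test. Reads n and background b were solved from fold = (n + 1)/(b + 1) and the Poisson p-value, within 0.002 on −log10 p. Motifs were searched within 50 bp of summits. The steps were tested on simulated data. Python 3.11.15, pandas 2.3.3 and scipy 1.17.1 were used. The genes and lists were chosen with earlier results of these data known. All 10 genes are named, as are genes of both lists with a promoter peak in both cell lines, and genes with a TSS within 3 kb of a called promoter peak. Alternatives changed the threshold, fold, promoter, TSS set, placement, motif and VAL libraries.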

Additional observations from a re-analysis of the deposited data

Results flagged for a closer look

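The OCI-Ly1 replicate 1 list, not used in any comparison, held an interval over IKZF2 that passed the threshold, with a fold enrichment of 3.0 and a −log10 q of 3.57. It runs from 1 to 243041133 on chromosome 2, and so marks nearly the whole chromosome and no site of IKZF2. It was the only called interval of that list.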

How the results depend on the processing

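No paired analysis was possible because the usable libraries of the cell lines share only replicate number 2, and calls were counted per library with no test. Promoter peaks were called at 3 of the 10 genes in OCI-Ly1 r2, 2 in VAL r2 and 2 in both cell lines. At a −log10 q threshold of 5 these counts were 1, 0 and 0, with a fold enrichment of at least 6 they were 1, 0 and 0, and with the 5′ end of each gene in place of all TSS they were 1, 1 and 1. At a threshold of 2 the OCI-Ly1 count was 5. The share of all protein coding genes was not taken under these alternatives or those below. The changes therefore cannot be read as particular to these genes. With promoter and gene together, 3 genes had a peak in both lines and 1 at a −log10 q of at least 5. Leaving out 1 VAL replicate gave 0 to 2 genes for the promoter and 0 to 3 for promoter or gene, with 0 in each case without VAL replicate 2, so both counts rest on that library. Peaks inside the genes numbered 5 in OCI-Ly1 r2 and 3 in VAL r2. They were 3 and 1 at a −log10 q of at least 5, 8 and 7 at 2, 3 and 1 with a fold of at least 6, and 2 and 1 further than 3 kb from every TSS of the gene. A promoter of 1 kb, coding transcripts only and placement by summit left these counts within 1.5 times, and the counts of VAL r1 were 0 throughout. Within 1 kb the OCI-Ly1 r2 promoter count was 2, and the best TCF3 value there was 1.61, below the threshold. The number of promoter sites with the motif, 2 of 3, was 2 or 3 under each alternative. Joining peaks by summits within 100 bp gave 4 sites, of which 2 held the motif. At 6 to 9 reads per called site, depth limits what can be detected.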

Other observations

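Outside the genes and their promoters but within 50 kb, 4 called peaks were found in OCI-Ly1 r2, none in VAL r1 and 6 in VAL r2. Per Mb of these flanks this was 4, 0 and 6 peaks, beside 1.73, 0.31 and 2.09 per Mb for all called peaks over the genome. The flanks hold promoters of other genes, and no background matched for this was made for these peaks. Apart from the peak past the 3′ end of IKZF3, the highest was centred 48.4 kb upstream of POU2F2 in OCI-Ly1 r2 (−log10 q of 7.62 with 10 reads, 4.8 to 18.4) and 48.1 kb upstream in VAL r2 (19.2 with 16 reads, 9.15 to 26). VAL r1 listed a peak of 0.13 with 7 reads (2.81 to 14.4) there. The nearest coding TSS was that of the kinase gene GSK3A, 2364 bp from the centre of the OCI-Ly1 peak. A peak of 4.71, called in OCI-Ly1 r2 alone, was centred 163 bp from the TSS of ZNF574, on the 3′ side of POU2F2. There VAL r2 listed an overlapping peak of 0.95 with 3 reads (0.62 to 8.77), and VAL r1 listed none. Around ID3, VAL r2 had 3 called peaks of 3.2, 3.27 and 3.27, none of them called in OCI-Ly1 r2 or VAL r1. GSK3A and ZNF574 are named after their values were seen.

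Among the relatives of the lineage factors, MYBL1, a MYB family gene active in germinal center B cells, had a called promoter peak in both VAL libraries (5.17 and 21.7) and reached 2.84 in OCI-Ly1 r2, just under the threshold. It was chosen after its values were seen, and a difference between the cell lines was not tested.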
